A study of Mus musculus with 6 samples.

Results

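The 10 genes described here belong to the cyclic AMP (cAMP) response and were measured in MIN6 cells, mouse cells from an insulin-producing tumour that serve as a stand-in for beta cells. The genes were the NR4A nuclear receptors Nr4a1, Nr4a2 and Nr4a3, the transcription factors Creb1 and Crem, the coactivator Crtc2, and the cAMP-induced genes Sik1, Per1, Pde10a and Pde4d. They are 10 of the 23284 gene symbols counted, and all 10 had enough reads to enter the test among 13039 genes. They were taken by symbol, as a group chosen because Nr4a2, Crem and Sik1 tended to be higher when Paupar, a long noncoding RNA, was knocked down. Their differences between the groups are therefore a description, given without p-values, and support nothing on their own. RNA was sequenced from 3 libraries of cells given a control antisense oligonucleotide (Control KD) and 3 given one against Paupar (Paupar KD). The labels give no dose, no time after treatment and no statement that replicates were separate cultures, so any p-value measures the library-to-library spread only, and that spread may be technical. The level of Paupar itself was not analysed here.

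Hormones and nutrients that raise cAMP in beta cells, such as GLP-1, activate protein kinase A, which phosphorylates CREB. At the same time the kinases SIK1 and its relatives lose their hold on the CRTC coactivators, which enter the nucleus and join CREB on cAMP response elements (CREs). The genes switched on in this way include fast-acting transcription factors such as the NR4A receptors, and brakes on the signal itself: ICER, a short repressor made from the Crem gene, the kinase SIK1, and phosphodiesterases that break down cAMP. In beta cells this route is known for its part in survival and in the response to glucose and incretin hormones.

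The NR4A genes and Per1 are shown first by their promoters, since CREB acts there and the sequence does not depend on the measured values. RefSeq windows of 300 bases, from 250 before to 50 after a start site, matched 7 of the 10 genes in 9 windows of the GRCm38.p6 build. Those for Sik1, Crem and Crtc2 were not among them. Each window was searched on both strands for the full CRE TGACGTCA, for its core TGACG, and for AAAGGTCA, the site that a single NR4A receptor binds. A full CRE contains the core on each strand. The windows below are written 5′ to 3′ on the gene's strand, with TGACG or its reverse complement in capitals. They are shown because the NR4A windows hold the most core matches of the 9.
Nr4a1 (chr15:101266596-101266895, plus strand): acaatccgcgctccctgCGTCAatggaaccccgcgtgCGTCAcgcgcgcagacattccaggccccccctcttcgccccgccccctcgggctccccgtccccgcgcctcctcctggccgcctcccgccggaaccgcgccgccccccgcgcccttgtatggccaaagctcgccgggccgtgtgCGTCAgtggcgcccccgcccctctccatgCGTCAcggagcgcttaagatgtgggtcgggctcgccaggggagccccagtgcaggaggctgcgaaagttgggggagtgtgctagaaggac
Nr4a2 (chr2:57123954-57124253, minus strand): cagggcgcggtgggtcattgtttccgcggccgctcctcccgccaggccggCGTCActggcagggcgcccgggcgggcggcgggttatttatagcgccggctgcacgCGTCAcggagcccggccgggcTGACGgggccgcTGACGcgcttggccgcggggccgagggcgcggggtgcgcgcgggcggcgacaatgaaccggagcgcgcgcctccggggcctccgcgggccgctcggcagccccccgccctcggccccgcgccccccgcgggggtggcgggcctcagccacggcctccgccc
Nr4a3 (chr4:48045055-48045354, plus strand): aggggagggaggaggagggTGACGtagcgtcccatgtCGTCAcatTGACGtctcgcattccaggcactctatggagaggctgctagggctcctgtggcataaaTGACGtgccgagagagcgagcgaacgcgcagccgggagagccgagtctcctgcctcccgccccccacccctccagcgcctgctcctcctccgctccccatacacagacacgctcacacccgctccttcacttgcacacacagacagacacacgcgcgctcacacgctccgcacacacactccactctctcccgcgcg
Per1, second start (chr11:69099902-69100201, plus strand): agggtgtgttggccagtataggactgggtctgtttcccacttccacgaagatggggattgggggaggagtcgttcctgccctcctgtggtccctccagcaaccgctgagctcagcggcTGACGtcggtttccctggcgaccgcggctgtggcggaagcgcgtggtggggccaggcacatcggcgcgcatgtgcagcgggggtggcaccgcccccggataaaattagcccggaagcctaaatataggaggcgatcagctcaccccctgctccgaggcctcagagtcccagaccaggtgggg

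Each NR4A window held 4 core matches, a number reached or passed in 76 of 32851 promoter windows of all genes (0.231%). In Nr4a1 all 4 lay on the opposite strand, at 233, 213, 69 and 40 bases before the start. In Nr4a2 they lay at 200, 144, 123 and 111 bases before the start, and in Nr4a3 at 231, 213, 205 and 147 bases. Per1 had 1 core match in each of its 2 windows, 132 bases before the second start and 246 bases before the first. The Creb1, Pde10a and Pde4d windows had 0. Thus 4 of the 7 genes had a core match, against 23.0% of 27025 genes. The core holds a CG pair and the NR4A windows are 64.7% to 81.7% G and C, while the background was not sorted by base content. No window of the 7 genes held the full CRE, which 1.79% of all windows did, or AAAGGTCA, which 1.51% did. Among 17 other cAMP-induced genes with a window, 16 had a core match and 7 a full CRE. Both sets were listed as parts of the cAMP response, so their core matches are not independent of that choice.

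**Figure D1:**
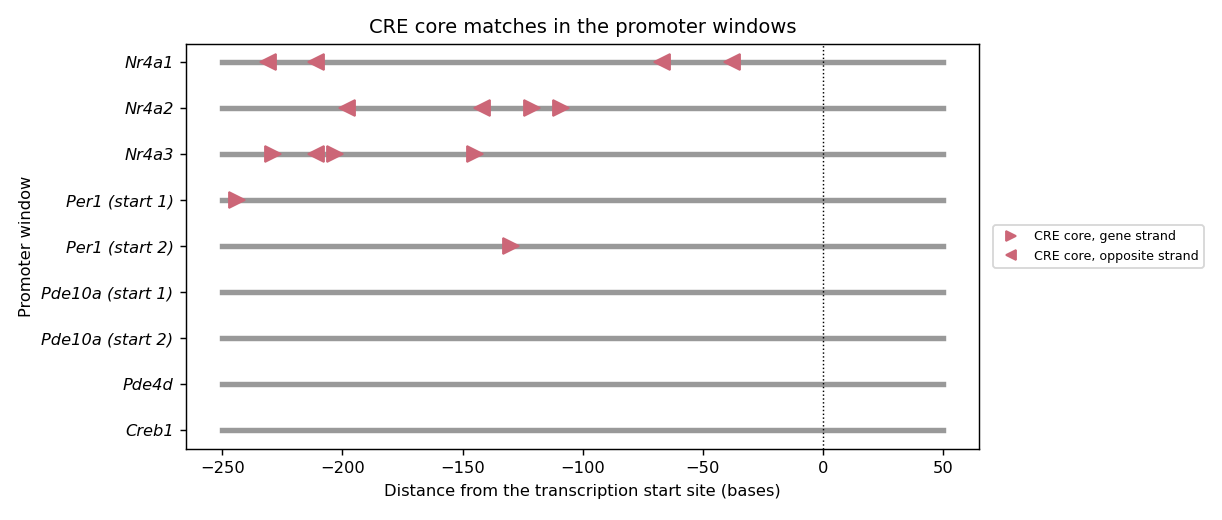
Positions of CRE core matches in 9 promoter windows of 7 genes, by distance from the start site in bases (0 is the start), with triangles pointing along the strand of the match. Nr4a1, Nr4a2 and Nr4a3 have 4 matches each, Per1 has 1 per window, and the other 4 windows have 0.

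The libraries held 16973622 to 28693863 counts. Beta cell markers were present in every library, with 9 of 9 tested and a summed level of 32290 to 36460 CPM (counts scaled to a common library total) in Control KD and 37980 to 56380 CPM in Paupar KD. This sum was mostly Ins2, Iapp and Ins1, and Ins1 and Ins2 were highest in Paupar KD replicate 1. Ins2, Iapp and G6pc2 were higher in every Paupar KD library than in any control, Slc30a8 was lower, and the other beta cell markers overlapped. The 2 delta cell and 4 fibroblast markers summed to under 1 CPM in every library (at most 0.133 and 0.729 CPM). Acinar and duct markers summed to 1.19 to 1.66 CPM in the controls and 0.685 to 1.003 CPM in Paupar KD, mostly Cela1, with Cpa1 and Prss2 at 0 counts in all 6 libraries. Immune markers summed to 2.44 to 2.48 and 0.826 to 1.502 CPM, mostly Cd68, with Ptprc at 0. Endothelial markers summed to 0.554 to 0.943 and 0.59 to 0.978 CPM, mostly Pecam1, with Cdh5 at 0. Gcg, the glucagon gene of the alpha cell, was at 66.6, 70.4 and 76.2 CPM in the controls and 124, 64.0 and 40.9 CPM in Paupar KD. The part of these differences in the results was not tested. Spread was wider after Paupar KD, with a biological coefficient of variation of 18.7% against 4.96% among controls. Over all genes, edgeR's quasi-likelihood test called 5 genes higher and 1 lower at an adjusted p of 0.05.

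Per kilobase of exon, in the control libraries alone, Nr4a1 (19.2 ± 4.08 CPM per kb, SD, n = 3) and Crtc2 (16.8 ± 0.26) were the most abundant of the 10 genes, with overlapping ranges. Creb1 followed at 12.2 ± 0.53 and Per1 at 7.895 ± 0.50 CPM per kb, each apart from its neighbours in the order. Sik1 (3.43 ± 0.72), Nr4a2 (3.19 ± 0.23) and Pde10a (2.98 ± 0.32) overlapped one another in this order. Below them lay Pde4d at 1.77 ± 0.19 and Crem at 0.826 ± 0.09 CPM per kb. Nr4a3 was lowest at 0.50 ± 0.19 CPM per kb. Within the receptor family the order Nr4a1, Nr4a2, Nr4a3 thus held in the controls without overlap. Exon lengths are those of GENCODE M1 and count all annotated exons, which lowers the value of genes with many alternative exons such as Pde4d and Pde10a.

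Nr4a2, also called Nurr1, is an orphan receptor best known for its part in dopamine neurons (chromosome 2, 56959241 to 56976414 of mm9, minus strand). It was at 12.6, 12.2 and 14.0 CPM in Control KD replicates 1 to 3 and at 25.4, 24.8 and 17.2 CPM in Paupar KD replicates 1 to 3. Every Paupar KD library was above every control, and replicate 3 was the nearest to them. The means were 12.95 ± 0.93 and 22.5 ± 4.56 CPM (SD, n = 3 per group), a 1.74-fold level and a log2 fold change of 0.79 ± 0.16 SE. In bulk RNA, a change in the number of cells expressing a gene and a change in RNA per cell cannot be told apart.

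Nr4a1, or Nur77, is the family member most readily induced by many stimuli (chromosome 15, 101097277 to 101105223, plus strand). Its levels were 41.95, 41.6 and 59.3 CPM in the controls and 41.8, 83.0 and 65.3 CPM in Paupar KD replicates 1 to 3. The groups overlapped: Paupar KD replicate 1 lay at the level of control replicates 1 and 2, and control replicate 3 lay between the groups' extremes. The log2 fold change was 0.41 ± 0.24 SE, on means of 47.6 ± 10.1 and 63.4 ± 20.7 CPM (SD, n = 3).

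Nr4a3, or NOR-1, was the least counted, with 38 to 122 reads a library (chromosome 4, 48058025 to 48099319, plus strand). It stood at 2.04, 2.68 and 4.26 CPM in the controls and at 2.24, 4.89 and 4.55 CPM in Paupar KD. Its libraries were low and high in the same places as those of Nr4a1: control replicates 1 and 2 and Paupar KD replicate 1 were low, the other 3 high. The log2 fold change was 0.38 ± 0.35 SE. The ratio of Nr4a3 to Nr4a1 CPM was 0.0486 to 0.0719 in the controls and 0.0537 to 0.0697 in Paupar KD. That of Nr4a2 to Nr4a1 was 0.236 to 0.301 in the controls and, in Paupar KD replicates 1 to 3, 0.609, 0.299 and 0.264, so that only replicate 1 lay outside the range of the controls.

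**Figure D2:**
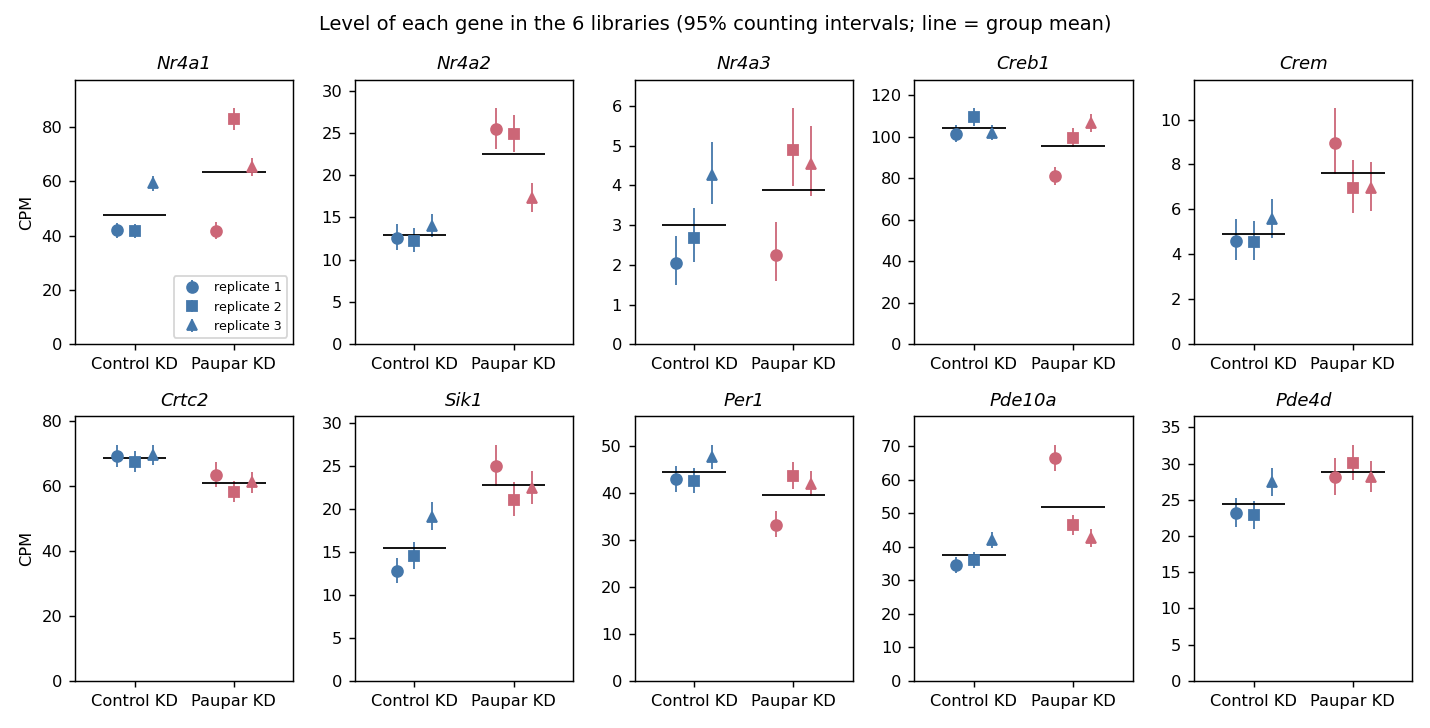
Level in CPM of each of the 10 genes in 3 Control KD and 3 Paupar KD libraries, with exact Poisson 95% intervals for counting error and a line at each group mean; every vertical axis starts at 0. Nr4a2, Crem, Sik1, Pde10a and Pde4d have all Paupar KD points above the controls, Crtc2 has all below, and the other 4 overlap.

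Crem encodes activating and repressing relatives of CREB, among them ICER, which starts from a promoter inside the gene. Gene-level counts do not separate these forms. Crem was at 4.61, 4.56 and 5.55 CPM in the controls and at 8.96, 6.945 and 6.95 CPM in Paupar KD, on 104 to 162 reads a library. All Paupar KD libraries were above the controls, with replicate 1 highest. The level was 1.554-fold (log2 fold change 0.63 ± 0.17 SE), from 4.905 ± 0.56 to 7.62 ± 1.16 CPM (SD, n = 3). An antisense long noncoding RNA, Gm6225, shares 103 bases of exon with Crem and had 8 to 19 reads of its own. The strand setting of the counting is not given in the sources used here, so reads in the shared part cannot be assigned to either gene.

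Creb1, the cAMP-activated factor itself (chromosome 1, 64579378 to 64651121, plus strand), was at 101, 109 and 102 CPM in the controls and 80.9, 99.4 and 106 CPM in Paupar KD. The groups overlapped: Paupar KD replicate 1 was well below the controls, replicate 2 just below and replicate 3 within their range. The log2 fold change was -0.12 ± 0.11 SE. Crtc2, the coactivator that SIK kinases keep in the cytoplasm (chromosome 3, 90058085 to 90068047, plus strand), was at 69.1, 67.5 and 69.5 CPM in the controls. In Paupar KD it was at 63.4, 58.2 and 61.1 CPM, below every control. The level was 0.887 of the control mean, with a log2 fold change of -0.17 ± 0.08 SE on means of 68.7 ± 1.08 and 60.9 ± 2.60 CPM (SD, n = 3).

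Sik1, the salt-inducible kinase that CREB induces and that in turn restrains CRTC2 (chromosome 17, 31981193 to 31992737, minus strand), was at 12.8, 14.57 and 19.1 CPM in the controls and 24.95, 21.1 and 22.4 CPM in Paupar KD. The groups did not overlap, though control replicate 3 came near. The means were 15.5 ± 3.265 and 22.8 ± 1.965 CPM (SD, n = 3), 1.47-fold, with a log2 fold change of 0.56 ± 0.16 SE. The ratio of Sik1 to Crtc2 CPM was 0.185 to 0.275 in the controls and 0.362 to 0.393 in Paupar KD.

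Per1, a core circadian clock gene that light and cAMP induce through CREB (chromosome 11, 68908719 to 68923462, plus strand), had a negative log2 fold change, -0.16 ± 0.12 SE. It was at 43.0, 42.6 and 47.7 CPM in the controls and 33.3, 43.8 and 42.05 CPM in Paupar KD. Paupar KD replicate 1 was well below the controls, replicate 3 just below them and replicate 2 within their range.

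The 2 phosphodiesterase genes were both higher in every Paupar KD library than in any control. Pde10a, whose enzyme breaks down cAMP and cGMP (chromosome 17, 8718237 to 9179513, plus strand), was at 34.6, 36.1 and 42.1 CPM in the controls and 66.5, 46.6 and 42.6 CPM in Paupar KD. Its groups nearly touched, and Paupar KD replicate 1 stood far above the rest. The log2 fold change was 0.46 ± 0.17 SE with all libraries and 0.24 without that replicate. Pde4d, a cAMP-specific enzyme (chromosome 13, 109240142 to 110743669, plus strand, with a second annotated entry of the same name), was at 23.1, 22.9 and 27.5 CPM in the controls and 28.2, 30.1 and 28.15 CPM in Paupar KD. Its log2 fold change was 0.23 ± 0.11 SE, and control replicate 3 lay just below the Paupar KD values.

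Across the 10 genes, 7 log2 fold changes were positive and 3 negative, with a median of 0.40 beside 0.01 over all tested genes. The median was 0.19 without Paupar KD replicate 2, 0.26 without Control KD replicate 1 and 0.30 to 0.58 without any other library. The groups did not overlap for 5 that were higher and 1 that was lower, beside 13.7% and 13.3% of all tested genes. No member was called by edgeR at an adjusted p of 0.05, where 0.046% of all genes were called. At an unadjusted p under 0.05 edgeR gave 4 members, all higher, beside 9.63% of all genes that were higher and 17.7% in either direction. DESeq2 called Nr4a2 and Crem, both higher, beside 2.15% called higher and 1.82% lower of the 12785 genes with an adjusted p; limma-voom called 0. Because the genes were chosen on this contrast, nothing is read from these counts. Without Paupar KD replicate 3 edgeR called Nr4a2 and Crem, both higher, where it called 4.65% of all genes higher and 5.67% lower. Leaving out any other single library gave 0 calls.

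Paupar KD replicate 1 stood at opposite ends of its group for different genes. It was the highest of the 3 for 5 genes, Nr4a2, Crem, Sik1, Pde10a and Crtc2, and the lowest for 4, Nr4a1, Nr4a3, Per1 and Creb1. Among all 13039 tested genes this library was the highest of the 3 for 5256 and the lowest for 5161. Its place at either end of the group was thus not particular to the genes described here. In that library the log2 difference from the control mean ran from -0.42 for Per1 to 0.97 for Nr4a2. In replicate 2 it ran from -0.24 for Crtc2 to 0.93 for Nr4a2, and in replicate 3 from -0.17 for Crtc2 to 0.59 for Nr4a3.

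**Figure D3:**
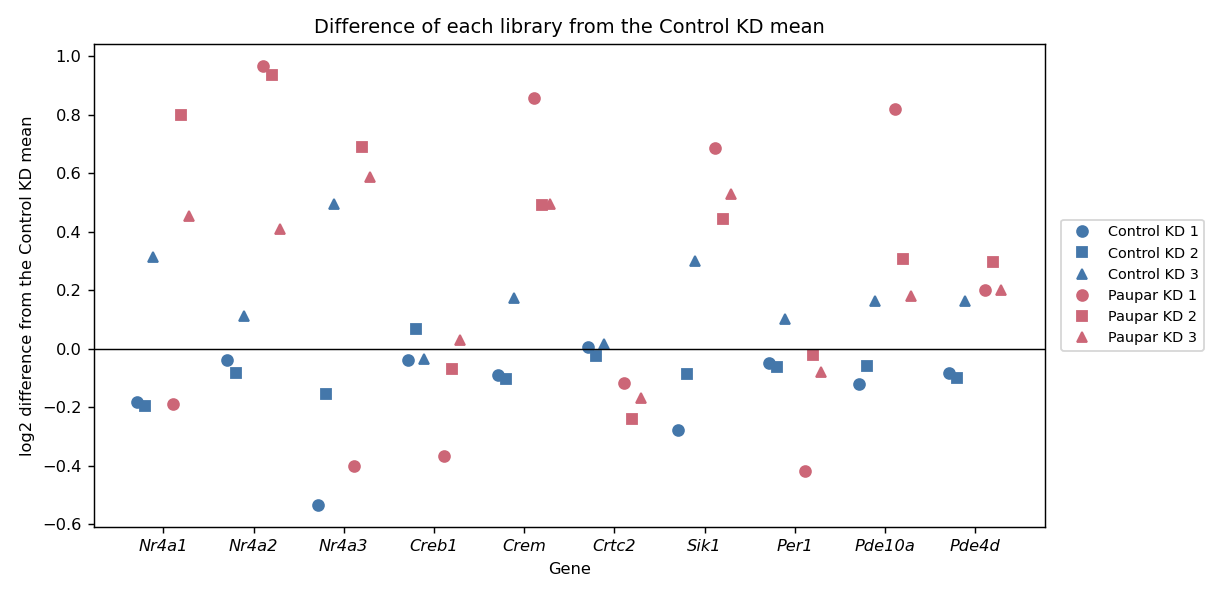
The log2 difference of each library from the Control KD mean for the 10 genes (log2 of CPM plus 0.1), with colour for the group and marker shape for the replicate. Paupar KD replicate 1 is high for Nr4a2, Crem, Sik1 and Pde10a and low for Nr4a1, Nr4a3, Per1 and Creb1.

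The control libraries also differed among themselves in these genes, a comparison that does not enter the choice of members but was noticed after the values were seen. Control replicate 3, the deepest library, was the highest of the 3 controls for 9 of the 10 genes, all but Creb1. Over all tested genes it was highest for 34.4%. Its level was 1.804 times the mean of the other 2 controls for Nr4a3, 1.42 times for Nr4a1 and 1.40 times for Sik1, and between 1.11 and 1.21 times for Nr4a2, Crem, Per1, Pde10a and Pde4d. For Crtc2 its level was 1.02 times that mean. For Nr4a1 its 95% counting interval, 56.5 to 62.2 CPM, lay above those of control replicates 1 and 2, which together ran from 39.0 to 44.7 CPM. Among related genes, control replicate 3 was highest for 9 of 14 CREB partners and enzymes and 7 of 11 cyclases and G proteins. It was highest for 6 of 11 other phosphodiesterases, 6 of 19 other cAMP-induced genes and 5 of 17 genes of the kinase A list. For NR4A partners and clock genes it was highest for 4 of 10 and 1 of 14. A share above that of all genes was thus not confined to the 10 genes. Without control replicate 3 the 7 positive log2 fold changes were larger, such as 0.73 for Nr4a3 and 0.74 for Sik1. Of the negative ones, Per1 went from -0.162 to -0.108, Crtc2 from -0.174 to -0.165 and Creb1 from -0.124 to -0.140.

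**Figure D4:**
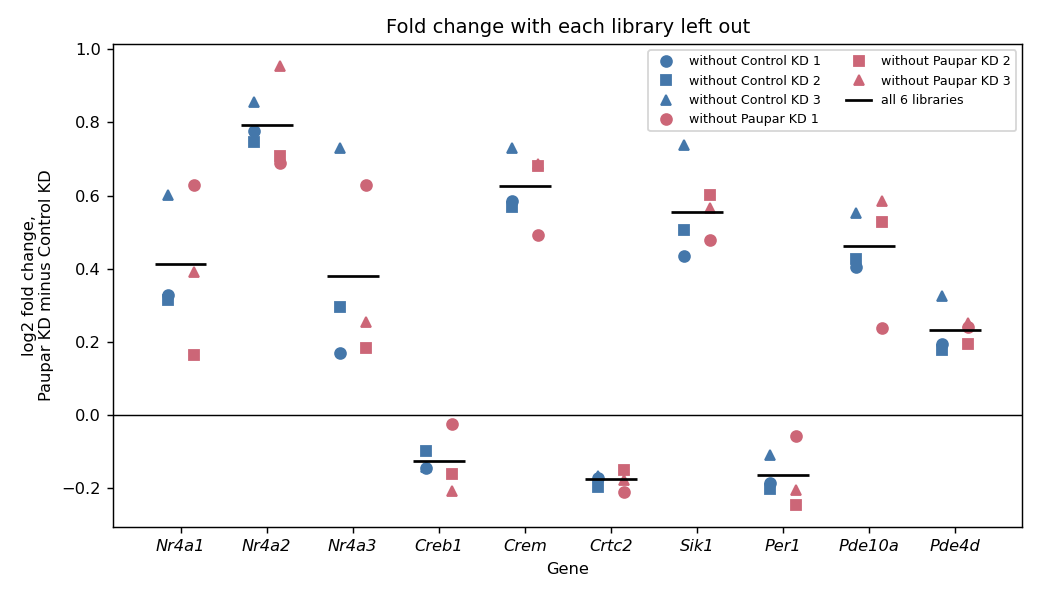
Log2 fold change of each gene, Paupar KD minus Control KD, with all 6 libraries (line) and with each library left out (points). All 10 genes keep their sign; Nr4a1 and Nr4a3 move most, from 0.16 to 0.63 and from 0.17 to 0.73.

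The rest of the pathway was followed in 7 lists with 111 genes, of which 96 were tested. The edgeR test called 0 of them higher and 0 lower. At an unadjusted p under 0.05 it gave 5 higher and 12 lower, beside 9.63% and 8.11% of all genes. DESeq2 called 1 higher, Prkar1a, and 4 lower, Cry2, Bhlhe41, Per3 and Th, beside 2.15% and 1.82% of all genes, and limma-voom called 0. Groups did not overlap for 5 that were higher and 20 that were lower, beside 13.7% and 13.3% of all genes. The median log2 fold change was -0.09.

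Upstream of CREB, the 11 tested genes of adenylyl cyclases and G proteins had a median log2 fold change of 0.09, with 7 positive and 4 negative. The median turned to -0.09 without Paupar KD replicate 3 (4 positive, 7 negative) and to -0.02 without replicate 1 (5 and 6). The cyclase Adcy9 was at 88.0 ± 6.485 and 71.9 ± 11.1 CPM in Control KD and Paupar KD, and Adcy3 at 2.71 ± 0.27 and 2.003 ± 0.37 CPM (SD, n = 3; edgeR adjusted p = 0.276 and 0.314). Of 17 genes of protein kinase A, its inhibitors and anchors and EPAC, 6 were positive and 11 negative, with a median of -0.02. Prkar1a, the regulatory subunit that holds the kinase inactive until cAMP binds, was at 1006, 994 and 1005 CPM in the controls. In Paupar KD it was at 1670, 1279 and 1443 CPM, above all of them. The level was 1.46-fold, with a log2 fold change of 0.55 ± 0.11 SE and an edgeR adjusted p of 0.109. DESeq2 gave an adjusted p of 0.0014, and edgeR called Prkar1a without Paupar KD replicate 1 or replicate 3 (adjusted p = 0.0261 and 0.032). Of all genes, 0.934% and 4.65% were called higher at those settings. The catalytic subunit gene Prkacb was also called higher without replicate 1. With all libraries Prkacb was at 165 ± 3.14 and 206 ± 49.5 CPM, with overlapping groups (edgeR adjusted p = 0.33). Prkaca, another catalytic subunit gene, was at 152 to 154 CPM in the controls and 162 to 203 CPM in Paupar KD (edgeR adjusted p = 0.328). Pkia, a kinase A inhibitor, was at 57.1 ± 2.98 and 46.1 ± 4.21 CPM (edgeR adjusted p = 0.198). Pkig, another inhibitor of the kinase, had the opposite sign, at 43.8 ± 3.70 and 59.3 ± 11.01 CPM, with groups that did not overlap (edgeR adjusted p = 0.207). Without Paupar KD replicate 3 edgeR called Pkia lower and Pkig higher, among the 5.67% and 4.65% of all genes called at that setting.

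Remaining cAMP phosphodiesterases were divided. Of 11 tested, 6 were positive and 5 negative, with a median of 0.00 that lay between -0.07 and 0.15 with a library left out. Pde4a and Pde4c, from the same family as Pde4d, were lower in every Paupar KD library than in any control. Pde4a was at 8.99 ± 0.66 and 6.14 ± 1.43 CPM and Pde4c at 14.4 ± 0.96 and 10.97 ± 1.52 CPM (edgeR adjusted p = 0.222 and 0.225). Pde4b, of the same family, was at 27.55, 30.75 and 31.8 CPM in the controls and 69.9, 35.6 and 26.8 CPM in Paupar KD, with overlapping groups (edgeR adjusted p = 0.376). Of 14 CREB partners, CRTC relatives and the enzymes that act on them, 4 were positive and 10 negative, with a median of -0.08. Ppp3r1, a calcineurin subunit, was at 287 ± 8.98 and 255 ± 10.15 CPM, and Stk11, the LKB1 kinase that activates SIKs, at 68.6 ± 0.95 and 84.9 ± 18.5 CPM (edgeR adjusted p = 0.305 and 0.312).

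Other genes that cAMP induces in various cells were divided, with 10 of 19 positive, 9 negative and a median of 0.03. The median turned to -0.07 without Paupar KD replicate 3 and to -0.01 without Control KD replicate 2. Without Paupar KD replicate 1 it was 0.12, with 13 positive and 6 negative. Measured against the control mean, the list's median log2 difference was -0.27 in Paupar KD replicate 1, 0.00 in replicate 2 and 0.28 in replicate 3. For the 10 genes described above, which were chosen on this contrast, it was 0.04, 0.38 and 0.31. Irs2, the insulin receptor substrate gene that CREB sustains in beta cells, was at 26.8 ± 2.36 and 31.7 ± 3.21 CPM (edgeR adjusted p = 0.303). Rgs2, a brake on G protein signalling, was at 23.5 ± 3.02 and 18.1 ± 2.66 CPM (edgeR adjusted p = 0.252). Without Paupar KD replicate 3 edgeR called 4 of these 19 genes, all lower: Fos, Egr1, Dusp1 and Rgs2, where it called 5.67% of all genes lower.

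The partners of Per1 in the clock were mostly at lower levels in Paupar KD. Of 14 tested clock genes, 13 had a negative and 1 a positive log2 fold change, with a median of -0.48, where 6387 of all 13039 were negative. Groups did not overlap for 7, all lower, beside 13.3% of all genes. Cry2, a clock repressor, was at 112, 116 and 115 CPM in the controls and 87.9, 78.2 and 90.4 CPM after Paupar KD (0.746 times the control mean; edgeR adjusted p = 0.116). Bhlhe41, another repressor of the clock, was at 90.9 ± 9.72 and 55.9 ± 13.1 CPM (0.615; edgeR adjusted p = 0.143). Under DESeq2 the adjusted p was 0.00332 for Cry2 and 0.00799 for Bhlhe41. The list's median difference was -0.72 in Paupar KD replicate 1, -0.55 in replicate 2 and -0.08 in replicate 3. Without Paupar KD replicate 3 edgeR called 9 of the 14 lower, beside 5.67% of all genes. Without replicate 1 it called 1 lower, Cry2, beside 0.972% of all genes, with a list median of -0.32. The time of day or of collection of the libraries is not given in the labels, and its part in the clock genes was not tested.

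Of 10 tested RXR partners and reported NR4A targets, 3 were positive and 7 negative, with a median of -0.10. Th, the tyrosine hydroxylase gene that NR4A2 activates in dopamine neurons, was at 376, 368 and 358 CPM in the controls. In Paupar KD it was at 307, 248 and 295 CPM, below all controls, while Nr4a2 itself was above them (edgeR adjusted p = 0.161 for Th). Without Paupar KD replicate 1 Th was called lower (edgeR adjusted p = 0.0403), as were 0.972% of all genes. Ret, a receptor kinase gene of dopamine neurons, was at 175 ± 11.8 and 215 ± 14.2 CPM, higher in all 3 Paupar KD libraries (edgeR adjusted p = 0.197).

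**Figure D5:**
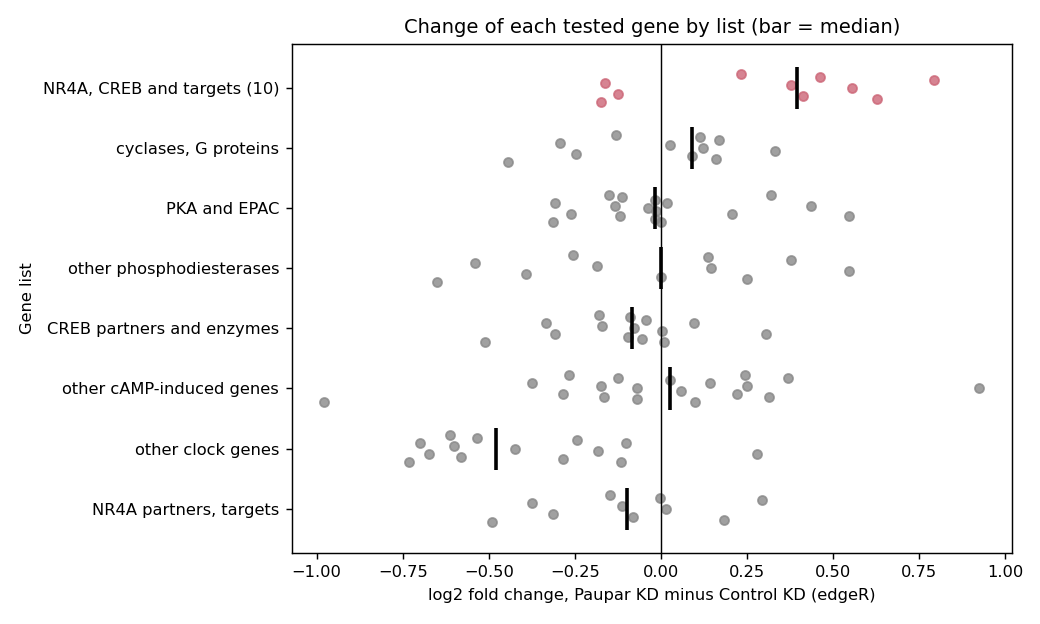
Log2 fold change of every tested gene, Paupar KD minus Control KD, for the 10 genes described and 7 lists of related genes, with a bar at each median. The 10 genes, chosen on this contrast, have a median of 0.40; the other clock genes have the lowest median, -0.48, and the other lists lie between -0.10 and 0.09.

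Genes outside the group with the most similar profile were ranked by the root mean square difference of log2 levels over the 6 libraries, each gene set to its control mean, among 10673 genes. For Nr4a2 these were Ina (0.0889), Rusc1 (0.117) and Iqcg (0.118), against a median of 0.594 over all genes compared. Ina, a neurofilament protein gene, was at 9.58 to 10.5 CPM in the controls and 19.5, 18.7 and 11.97 CPM in Paupar KD. For Crem they were Gm88 (0.0623), Etnk2 (0.066) and Gpc1 (0.0722). For Sik1 they were Gpc1 (0.0974), Sec16b (0.0981) and Sdk2 (0.129). Gpc1, which encodes a cell-surface proteoglycan, thus stood near both, at 29.1 to 36.8 CPM in the controls and 43.6 to 52.7 CPM in Paupar KD. With 6 libraries, such likeness is a description of these libraries.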

How the data were processed

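Per the labels, libraries were made with an Illumina TruSeq kit from Qiagen RNeasy RNA. The authors deposited raw read counts per gene symbol, 1 table per library. The submitters' processing notes list mm9 as the build and CASAVA 1.8.2, HISAT2, DESeq2 and HTSeq as tools. What each did, and which strand setting and annotation served, is not given in the sources used here.

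Counts were tested with edgeR 4.0.16 in R 4.3.3: filterByExpr (minimum count 10), TMM factors, the robust quasi-likelihood test and Benjamini-Hochberg adjustment over 13039 genes at 0.05. A standard error is the log2 fold change divided by the square root of F. CPM use the TMM factors. Counting intervals are exact Poisson, at 95%, and cover counting error only. Log2 differences by library used a pseudocount of 0.1 CPM. Gene positions and exon lengths are from GENCODE M1 on NCBIM37, the assembly called mm9, and promoters from RefSeq. Of the list symbols, Ciart was matched by its older symbol, Gm129.

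The members, lists, naming rule and motifs were chosen with earlier results of these data known. Named were all members, up to 4 called genes per list or else the 2 with the smallest p at a mean of at least 1 CPM, and the 3 genes most like Nr4a2, Crem and Sik1 at a mean of at least 5 CPM. Others, such as Per3, Prkaca, Prkacb, Pkig, Pde4b, Fos, Egr1 and Dusp1, were named after their values were seen. No 2 libraries agreed within sampling noise (chi-square per gene 3.47 or more, against 1 for counting error alone). The test was also run on simulated counts with a spread taken from these data, and no result here rests on that run. Alternatives were other scaling factors, other filters, DESeq2 1.42.0, limma-voom (limma 3.58.1), no robust estimation, a replicate block and leaving out each library.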

Additional observations from a re-analysis of the deposited data

How the results depend on the processing

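All 10 members and the 14 named genes of the lists kept the sign of their log2 fold change in 15 alternatives. Against 5 higher and 1 lower genes over all genes, edgeR gave 36 and 24 with no filter on low counts, 2 and 0 at a mean CPM of at least 1, and 3 and 0 with upper-quartile scaling, and DESeq2 gave 275 and 233. Leaving out 1 library gave 0 to 611 higher and 0 to 745 lower genes: 123 and 128 without Paupar KD replicate 1, 611 and 745 without replicate 3, and 0 without any other. Members called were 2 higher with DESeq2, and 0 to 2 higher with a library left out. List genes called were 1 higher and 4 lower with DESeq2, 0 to 2 higher and 0 to 16 lower with a library left out; the cause was not tested. A replicate block gave 1 higher gene and 0 lower over all genes, and 0 among members and lists. Numbers were not taken to pair the libraries: deviations of same-numbered libraries correlated at 0.07, -0.01 and 0.01, and only Paupar KD replicate 1 correlated best with its own number. RLE factors, library size alone, limma-voom and no robust estimation each gave 5 and 1. Scaling moved the median of all genes to at most 0.03. The lowest counts, 38 to 122 for Nr4a3, limit that gene most.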

Other observations

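Some genes of the lists separated the Paupar KD libraries more than the groups; they are named because of their values. Gnas, which encodes the G protein subunit that activates adenylyl cyclase, was at 1803 to 1859 CPM in the controls and at 3220, 1871 and 1794 CPM in Paupar KD replicates 1 to 3 (edgeR adjusted p = 0.429). Egr1, an immediate-early transcription factor gene, was at 37.3 to 59.6 CPM in the controls and at 12.7, 12.9 and 49.7 CPM after Paupar KD (edgeR adjusted p = 0.332). Bhlhe40, a clock repressor gene, was at 83.8 to 104 CPM in the controls and at 29.5, 39.9 and 105 CPM after Paupar KD (edgeR adjusted p = 0.372). Nr1d2, which encodes the nuclear receptor REV-ERB beta, was at 112 to 117 CPM in the controls and at 38.9, 74.4 and 111 CPM after Paupar KD (edgeR adjusted p = 0.334). Egr1 and Bhlhe40 were thus low in Paupar KD replicates 1 and 2 and within or near the control range in replicate 3. Nr4a1 was instead at the level of the lower controls in replicate 1 and above all controls in replicates 2 and 3.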
